A study of Homo sapiens with 12 samples.

Results

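SR proteins and heterogeneous nuclear ribonucleoproteins (hnRNPs), the RNA-binding proteins that bind new transcripts and set which exons are kept, were examined in 12 RNA sequencing libraries of pancreatic carcinoma cells. The 36 genes were taken by symbol from the deposited table of 63677 gene rows. They were 13 SR and TRA2 genes (SRSF1 to SRSF7, SRSF9 to SRSF12, TRA2A and TRA2B) and 23 hnRNP genes, among them the PTB and poly-C binding genes and SYNCRIP. All 36 matched a row, and 35 passed the filter on low counts among 17862 genes tested.

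None of these 35 genes passed the test between RBM3 siRNA and control siRNA, in either cell line. Between the cell lines under control siRNA, 9 of the 35 differed, a smaller share than the 50.8% of all genes tested. SRSF2, SRSF6, SRSF10, HNRNPF and HNRNPH2 were higher in PANC-1, and SRSF4, HNRNPUL1, HNRNPC and HNRNPA3 were lower. Within MIA PaCa-2, HNRNPM differed 3.31-fold between its highest and lowest library, and high and low libraries came from both treatments.

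SR proteins carry RNA-recognition motifs and a tail rich in arginine and serine, which kinases phosphorylate. They bind exonic enhancers and recruit the splicing machinery. Most hnRNPs bind silencer or intronic sequences and often oppose the SR proteins, so the balance of both classes shapes alternative splicing in many carcinomas. Many SR genes limit their own level through splice forms with a premature stop codon, which are degraded by nonsense-mediated decay.

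MIA PaCa-2 and PANC-1 are established human pancreatic carcinoma lines. The 4 groups of 3 libraries were each line with a negative control siRNA and each line with 2 siRNAs given together that target RBM3, an RNA-binding protein induced by cold. All groups received 25 nM of siRNA by lipofection for 4.5 h without serum, after 72 h of culture, and were harvested the next day. Both lines therefore carried siRNA and transfection reagent in the controls as well, and no untransfected group was analysed here. The study asked how lowering RBM3 alters gene expression in each line.

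Library totals ran from 14217185 to 39652502 counts. The 3 PANC-1 siRNA libraries held 31440551 to 33341322 counts, more than the 14217185 to 23993638 of the PANC-1 controls. RBM3 was at 249.8, 277 and 207 CPM (counts scaled to a common library total after TMM normalisation) in the MIA PaCa-2 controls and at 44.4, 37.4 and 61.9 CPM with its siRNA. In PANC-1 it was at 567, 426 and 436 CPM in the controls and at 96.5, 195 and 83.0 CPM with siRNA, so it was lower in every siRNA library of either line. Its log2 fold change was -2.35 (SE 0.31, edgeR adjusted p = 0.0426) in MIA PaCa-2 and -1.93 (SE 0.30, edgeR adjusted p = 0.516) in PANC-1, where DESeq2 called it (adjusted p = 1.75e-05). The MIA PaCa-2 call held in 7 of 20 alternative analyses. PANC-1 siRNA replicate 3 also held transcripts typical of MIA PaCa-2. COL1A2, a collagen gene, was at 441 CPM in it, against 0.0461 to 1.67 CPM in the other PANC-1 libraries and 899 to 1814 CPM in MIA PaCa-2. ALDH1A1, UCA1 and SLC17A9, the other 3 such transcripts listed, were likewise higher in it than in any other PANC-1 library. The main results that use this library are given with and without it. Among the 5 duct markers, KRT8, KRT18 and KRT19 were high in both lines, whereas EPCAM and KRT7 were at or near 0 in MIA PaCa-2. No label states that replicates came from separate cultures, so each p reflects the spread among these libraries only, which may be technical. In bulk libraries fewer cells of a kind and less RNA per cell cannot be told apart.

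Per kilobase of exon, the highest of the 35 tested SR and hnRNP genes under control siRNA was HNRNPK, which encodes a poly-C binding protein. It stood at 294 ± 32.0 CPM per kb in MIA PaCa-2 and 243 ± 10.5 CPM per kb in PANC-1 (SD, n = 3). PCBP1, another poly-C binding protein, was next at 241 ± 52.3 and 229 ± 8.97 CPM per kb, and its SD range overlapped that of HNRNPK in both lines. HNRNPA2B1, which binds splicing silencers and takes part in RNA transport, was at 227 ± 33.0 and 200.5 ± 11.2 CPM per kb. Before division by exon length it was the highest of these 35 genes, at 1347 and 1192 CPM. Exon length was the union over annotated transcripts, so the order depends on that choice. The highest SR gene was SRSF9, at 217 ± 40.3 CPM per kb in MIA PaCa-2 and 199 ± 9.34 CPM per kb in PANC-1. HNRNPAB, at 156 ± 33.9 and 201 ± 43.0 CPM per kb, ranked just above HNRNPA2B1 in PANC-1. In PANC-1 the SD ranges of SRSF9, HNRNPA2B1 and HNRNPAB overlapped.

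At the low end stood PTBP2, the neuronal form of the polypyrimidine tract binding protein, at 1.69 ± 0.46 CPM per kb in MIA PaCa-2 and 1.42 ± 0.276 CPM per kb in PANC-1. SRSF12, an SR-like splicing repressor, was barely detected: its row held 143 counts over all 12 libraries. Its level ran from 0.0584 to 0.547 CPM in MIA PaCa-2 and from 0.371 to 0.902 CPM in PANC-1. HNRNPA1, one of the best known hnRNPs, had a row at 0 counts in every library. Per library a count of 0 allows a level of up to 0.0714 to 0.208 CPM, which covers counting error alone. Among the table's other rows, 74 carried names of HNRNPA1 pseudogenes, 60 of them with counts, 19096 in all. HNRNPA1 is therefore given no level or test, and whether counting across near-identical copies bears on that 0 was not tested. Such a row was not particular to HNRNPA1: SRSF8, HNRNPUL2 and TAF15, outside the genes examined here, also had 0 counts in every library.

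**Figure D1:**
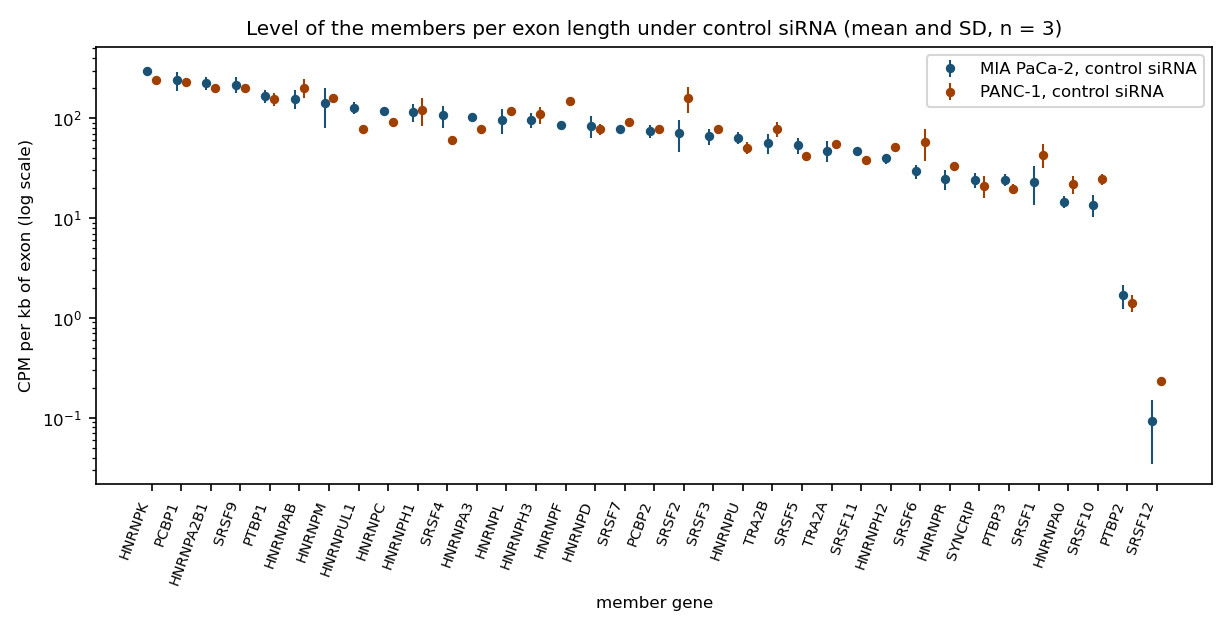
Level of the 35 tested genes under control siRNA, as CPM per kilobase of exon on a log axis (points, mean; bars, SD; n = 3 libraries for each line). HNRNPK stands highest at 294 and 243 CPM per kb, and PTBP2 and SRSF12 lie far below all others in both lines.

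Close relatives were compared as ratios of level per exon length. PTBP2 was at 0.00655 to 0.0166 of PTBP1, its broadly expressed paralogue, over all 12 libraries. PTBP3 was at 0.0996 to 0.228 of PTBP1. The TRA2A level was 0.638 to 1.04 of that of TRA2B, the other SR-like activator of purine-rich enhancers. PCBP1 exceeded PCBP2 in every library, by 2.35 to 3.43 times. HNRNPH2 was at 0.319 to 0.625 of HNRNPH1. For SYNCRIP (hnRNP Q) per HNRNPR the ratio was 0.874 to 1.13 in MIA PaCa-2 and 0.521 to 0.878 in PANC-1. SRSF12 was at 0.00127 to 0.0105 of SRSF10.

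RBM3 siRNA in MIA PaCa-2 changed none of the 35 genes past the threshold (0 of 35, edgeR quasi-likelihood test with Benjamini-Hochberg adjustment), beside 0.0112% of all genes tested. At an unadjusted p under 0.05 the count was again 0 of 35, beside 2.94% of all genes, and DESeq2 (0.118% of all genes) and limma-voom also called 0. That unadjusted count rose to 2 without siRNA replicate 5 and to 4 with the replicate number as a block. The share of all genes at these 2 settings was not computed. The log2 fold changes ran from -0.68 to 0.18, with a median of -0.10 against -0.0039 over all genes tested. Of the 35, 6 were above 0 and 29 below it. Without control replicate 1 the split was 15 above and 20 below, and without control replicate 2 it was 14 and 21. Without control replicate 4 it was 7 and 28, with a median of -0.19. For 31 of the 35 the 95% interval lay within a 2-fold change in either direction, and a larger change was outside it. The intervals of SRSF1, SRSF12, HNRNPAB and HNRNPM were wider.

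The smallest p in MIA PaCa-2 belonged to HNRNPAB, an hnRNP of the A/B class. It was at 314, 342 and 221 CPM in the controls and at 181, 185 and 259 CPM with RBM3 siRNA. Replicate 5 of the siRNA group lay above control replicate 4, so the groups overlapped. Its log2 fold change was -0.49 (SE 0.24, edgeR adjusted p = 1, unadjusted p = 0.068). HNRNPU, a large scaffold hnRNP, was at 657, 673 and 521 CPM and at 478, 529 and 569.7 CPM, a log2 fold change of -0.23 (SE 0.17, edgeR adjusted p = 1). HNRNPA3 and HNRNPH3, the others of the 4 smallest p, had log2 fold changes of -0.21 (SE 0.15) and -0.23 (SE 0.18), with edgeR adjusted p-values of 1. No gene of the 35 had siRNA libraries apart from all controls, beside 8.04% of all genes tested.

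In PANC-1 the log2 fold changes had a median of -0.0049, against 0.03 over all genes. Here 17 genes were above 0 and 18 below it, and they ranged from -0.87 to 0.31. None passed (0 of 35, edgeR adjusted p; 0% of all genes tested), none had an unadjusted p under 0.05, beside 4.12% of all genes, and DESeq2 (0.0168%) and limma-voom called 0. The interval lay within a 2-fold change for 34 of 35, SRSF12 being the exception. Without siRNA replicate 3, 18 were above and 17 below 0, the median was 0.0012, 0 passed, and 32 of the intervals lay within 2-fold. The split also moved with other single libraries: it was 26 above and 9 below without control replicate 1 (median 0.10), 12 and 23 without control replicate 4 (median -0.04), and 13 and 22 without siRNA replicate 2 (median -0.06).

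SRSF12 had the smallest p in PANC-1. It was at 0.813, 0.902 and 0.829 CPM in the controls and at 0.576, 0.434 and 0.371 CPM with siRNA, close to the limit of detection. All siRNA values lay below all controls, with a log2 fold change of -0.87 (SE 0.50, edgeR adjusted p = 1). PCBP1 was the other gene without overlap, at 419, 388 and 398 CPM against 380.2, 352 and 377 CPM, a log2 fold change of -0.12 (SE 0.16). These 2 of 35 stand beside 2.77% of all genes lower without overlap, and 6.52% in either direction. Without siRNA replicate 3, HNRNPA2B1 joined them, 3 of 35 beside 5.71%. HNRNPAB, PTBP2 and SRSF7 came next by p, with log2 fold changes of -0.32 (SE 0.24), 0.31 (SE 0.27) and -0.14 (SE 0.14).

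**Figure D2:**
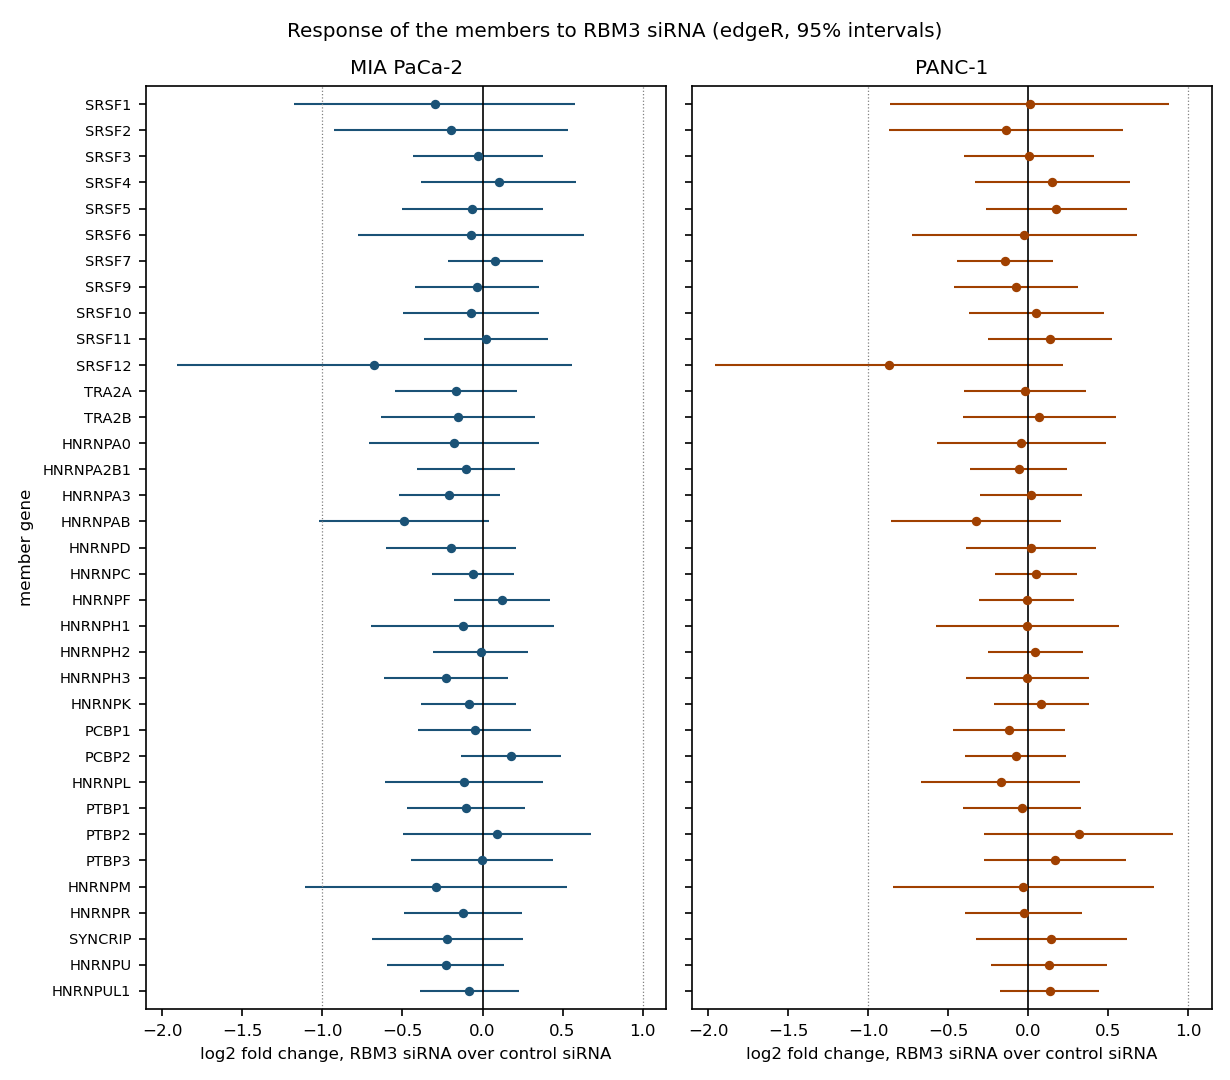
log2 fold change of RBM3 siRNA over control siRNA for the 35 tested genes in MIA PaCa-2 and PANC-1 (points, edgeR estimate from 3 libraries against 3; bars, 95% interval; dotted lines, a 2-fold change). Every interval includes 0, and 31 of 35 in MIA PaCa-2 and 34 of 35 in PANC-1 lie between the dotted lines.

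The difference of the responses, PANC-1 minus MIA PaCa-2, was tested as an interaction. None of the 35 passed (edgeR adjusted p; 0% of all genes tested), none had an unadjusted p under 0.05, beside 2.98% of all genes, and DESeq2 (0.0168%) and limma-voom called 0. Of the differences 28 were above 0 and 7 below it, with a median of 0.12 against 0.06 over all genes. Without PANC-1 siRNA replicate 3 the split was 26 and 9, with a median of 0.13 against 0.01. Over all single libraries left out, the median ran from 0.05 (22 and 13, without PANC-1 siRNA replicate 2) to 0.23 (29 and 6, without MIA PaCa-2 control replicate 4). For 28 of 35 the interval lay within 2-fold. HNRNPU and SYNCRIP, an hnRNP that also acts in translation, both differed by 0.36 (SE 0.24 and 0.31). PCBP2 and SRSF7 differed by -0.26 (SE 0.20) and -0.22 (SE 0.19), and the edgeR adjusted p was 1 for each of the 4.

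Under control siRNA, 9 of the 35 genes differed between PANC-1 and MIA PaCa-2 (edgeR adjusted p under 0.05), 5 higher and 4 lower in PANC-1. Over all genes tested, 50.8% passed in this comparison, 26% higher and 24.8% lower, and 50.8% of the 5142 genes at 50 CPM or more did. The share of the 35 was 25.7%, below that background. At an unadjusted p under 0.05 it was 13 of 35, beside 57% of all genes, and DESeq2 called 11, beside 52.1%. With library size alone as the scaling, the split was 6 higher and 3 lower. Leaving out MIA PaCa-2 control replicate 4 or PANC-1 control replicate 1 brought the count to 5 (2 higher, 3 lower), while the share of all genes called also fell, to 41.8% and 42.4%. Their median absolute log2 fold change was 0.30, against 0.76 over all genes and 0.52 among genes at 50 CPM or more. PANC-1 and MIA PaCa-2 libraries did not overlap for 17 of the 35 (11 higher, 6 lower), beside 61.5% of all genes (31.4% and 30.1%). Among the 13 SR and TRA2 genes 3 were higher and 1 lower, and among the 22 tested hnRNP genes 2 were higher and 3 lower.

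Of the SR genes, SRSF2 (ENSG00000161547), a nuclear speckle protein that activates exon inclusion, stood at 283, 195 and 142 CPM in MIA PaCa-2 controls. In PANC-1 controls it was at 623, 387 and 387 CPM. The lowest PANC-1 library stood above the highest of MIA PaCa-2, a 2.26-fold difference (log2 fold change 1.17, SE 0.34, edgeR adjusted p = 0.0124). SRSF6 (ENSG00000124193), also an exon activator, stood at 148, 109 and 122 CPM in MIA PaCa-2 and at 352, 215 and 186 CPM in PANC-1. It was higher in all 3 PANC-1 controls, with PANC-1 replicate 1 far above its 2 companions, and its log2 fold change was 0.99 (SE 0.33, edgeR adjusted p = 0.0237). SRSF10 (ENSG00000188529), an SR-like protein that represses splicing when dephosphorylated, was at 106, 71.9 and 70.6 CPM against 172, 147 and 134 CPM. The groups did not overlap, and the log2 fold change was 0.86 (SE 0.20, edgeR adjusted p = 0.00317). SRSF4 (ENSG00000116350) went the other way. It stood at 183, 276 and 304 CPM in MIA PaCa-2 and at 136, 152 and 149 CPM in PANC-1, a log2 fold change of -0.80 (SE 0.22, edgeR adjusted p = 0.0101), lower in all 3 PANC-1 controls. Without MIA PaCa-2 control replicate 4 the adjusted p was 0.0562 for SRSF2, 0.0698 for SRSF6 and 0.0513 for SRSF4. Without PANC-1 control replicate 1 it was 0.058 for SRSF2 and 0.122 for SRSF6, and without MIA PaCa-2 control replicate 2 it was 0.0795 for SRSF6.

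SRSF1 (ENSG00000136450), the founding SR protein and one that can act as an oncogene, did not pass. It stood at 94.9, 89.7 and 38.4 CPM in MIA PaCa-2 and at 180.2, 124 and 111 CPM in PANC-1 under control siRNA. The groups did not overlap, but both were wide, and its log2 fold change of 0.89 (SE 0.41) had an edgeR adjusted p of 0.0833. SRSF12, at 0.0584 to 0.902 CPM in all libraries, had a log2 fold change of 1.22 (SE 0.52, edgeR adjusted p = 0.0694). The other SR and TRA2 genes lay between -0.35 (SRSF5) and 0.45 (TRA2B).

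Among the hnRNP genes, HNRNPF (ENSG00000169813), which binds G-rich tracts near splice sites, separated the lines most sharply. It stood at 262, 283 and 286 CPM in MIA PaCa-2 controls and at 539.8, 459 and 464 CPM in PANC-1 controls. The gap between the groups was wider than the spread within either, and the log2 fold change was 0.81 (SE 0.14, edgeR adjusted p = 0.000486). HNRNPH2 (ENSG00000126945), a relative that binds the same kind of tract, was at 91.8, 95.7 and 76.5 CPM against 126, 113 and 104 CPM. It was higher in all 3 PANC-1 controls, with a log2 fold change of 0.38 (SE 0.14, edgeR adjusted p = 0.0353). HNRNPH1 and HNRNPH3 of the same family did not pass, at log2 fold changes of 0.07 (SE 0.26) and 0.18 (SE 0.18).

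HNRNPUL1 (ENSG00000105323), an hnRNP U relative linked to DNA repair, stood at 467, 613 and 508 CPM in MIA PaCa-2 and at 330.2, 319 and 314 CPM in PANC-1. It was lower in all PANC-1 controls (log2 fold change -0.72, SE 0.14, edgeR adjusted p = 0.00133). HNRNPC (ENSG00000092199), which binds uridine tracts and packages nascent RNA, was at 723, 774 and 747 CPM against 584, 566 and 559.6 CPM. Both groups were tight and did not overlap, with a log2 fold change of -0.39 (SE 0.12, edgeR adjusted p = 0.0146). HNRNPA3 (ENSG00000170144) was at 622, 676 and 572 CPM against 436, 499 and 480.0 CPM, a log2 fold change of -0.40 (SE 0.15, edgeR adjusted p = 0.0359). Rows of its pseudogenes held 10.4% of the counts of gene and pseudogenes together, so its level is uncertain. HNRNPA3 passed in 12 of 20 alternative analyses and HNRNPH2 in 13, and leaving out PANC-1 control replicate 1 gave adjusted p-values of 0.123 and 0.121. HNRNPC missed without PANC-1 control replicate 4 (0.0524). None of the 3 KH-domain genes or the 3 PTB genes passed, with log2 fold changes from -0.29 (PTBP3) to 0.06 (PCBP2).

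**Figure D3:**
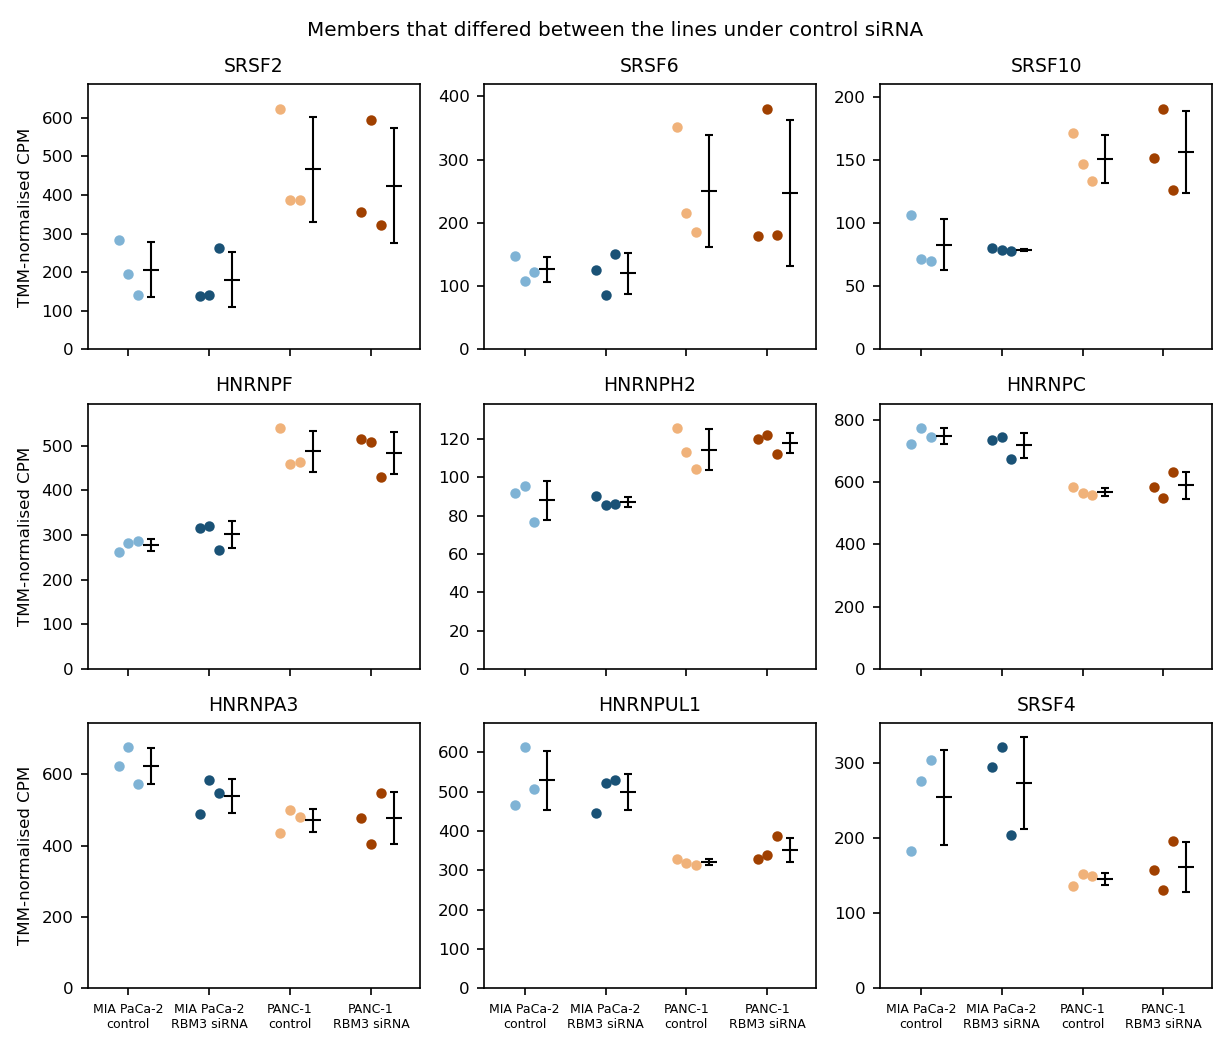
CPM of the 9 genes that passed between the lines under control siRNA, in each of the 12 libraries (points, libraries; dash and bar, mean and SD of 3; each panel has its own scale, starting at 0). In each panel no PANC-1 control overlaps the MIA PaCa-2 controls.

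The siRNA libraries gave the same comparison in samples that share no library with the controls, although the spread was estimated in the same fit. In them 11 of the 35 passed, 9 higher and 2 lower in PANC-1, beside 43.6% of all genes, 24.2% higher and 19.3% lower. Without PANC-1 siRNA replicate 3 they were 12, 9 higher and 3 lower, beside 50.2% of all genes, 26.3% higher and 23.9% lower. Of the 9 genes called in the controls, 7 passed the same way with all libraries and 8 without replicate 3. The like share among all genes called in the controls was not computed, so these counts have no background. HNRNPA3 missed in both, with an edgeR adjusted p of 0.335 and 0.106, and HNRNPC missed with all libraries, at 0.0665, and passed without replicate 3, at 0.0368. SRSF1, TRA2B, HNRNPA0 and HNRNPR were higher in PANC-1 in these libraries and had not passed in the controls. The SRSF1 log2 fold change was 1.20 (SE 0.41, edgeR adjusted p = 0.0311), or 1.41 without replicate 3.

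**Figure D4:**
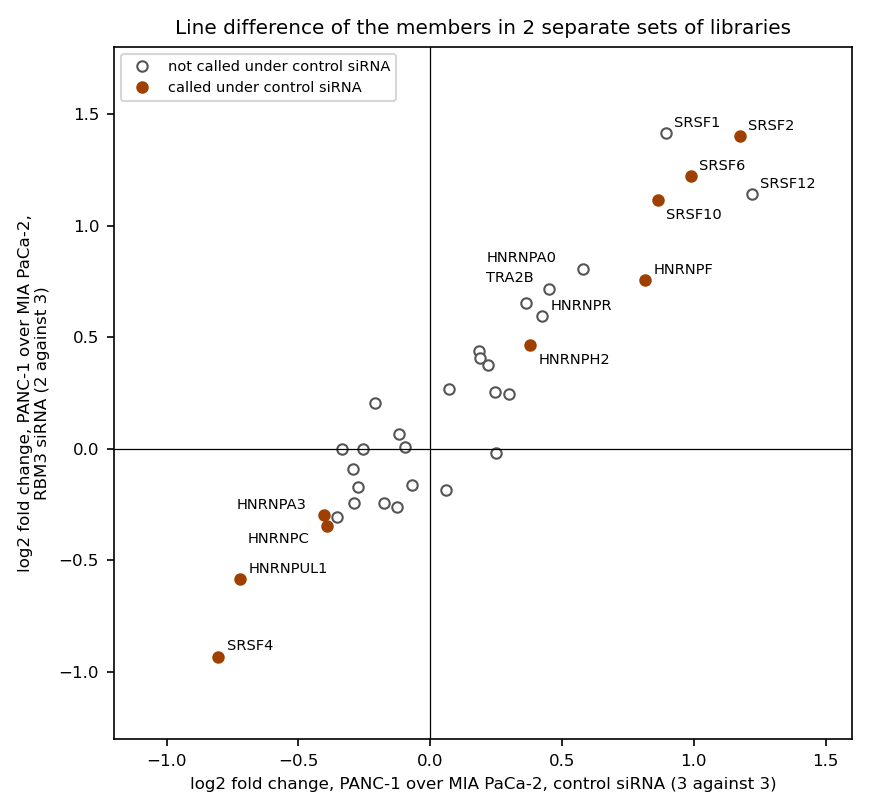
log2 fold change of PANC-1 over MIA PaCa-2 for the 35 tested genes, under control siRNA (x, 3 libraries against 3) and under RBM3 siRNA (y, 2 PANC-1 libraries without replicate 3 against 3). Filled points passed under control siRNA, and all 9 of them lie on the same side of 0 in both sets.

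Over both treatments, 7 genes had all 6 PANC-1 libraries above all 6 of MIA PaCa-2: SRSF1, SRSF2, SRSF6, SRSF10, HNRNPF, HNRNPH2 and HNRNPR. For 2 genes, HNRNPC and HNRNPUL1, all were below. These 9 of 35 stand beside 40.5% of all genes, 22.3% above and 18.2% below. HNRNPF ran from 262 to 320.3 CPM in MIA PaCa-2 (median 285) and from 430.0 to 539.8 CPM in PANC-1 (median 486). SRSF1 ran from 38.4 to 94.9 CPM (median 68.1) and from 97.2 to 205 CPM (median 119.8), so its lines came close. Without PANC-1 siRNA replicate 3, SRSF4 joined the genes below, beside 49.2% of all genes.

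HNRNPM, which binds GU-rich RNA and regulates splicing in epithelial and mesenchymal cells, had the largest spread in MIA PaCa-2 after the barely detected SRSF12. In MIA PaCa-2 it was at 398, 533 and 208 CPM in control replicates 1, 2 and 4 and at 161, 251 and 519 CPM in siRNA replicates 1, 2 and 5. The high libraries were control 1, control 2 and siRNA 5, and the low ones came from both treatments. Its coefficient of variation (CV) over these 6 libraries was 46.7%, and in PANC-1 it was 7.38%, where all values lay between 395 and 477 CPM. Between the lines its log2 fold change under control siRNA was 0.19 (SE 0.38, edgeR adjusted p = 0.696). It reversed to -0.10 when MIA PaCa-2 control replicate 4 was left out.

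SRSF1 was high in the same 3 MIA PaCa-2 libraries. It was at 94.9, 89.7 and 38.4 CPM in the controls and at 40.4, 46.5 and 94.7 CPM with siRNA, a CV of 42.0%, with the other 3 libraries at 46.5 CPM or less. SRSF2, at 283, 195 and 142 CPM and at 138, 139.9 and 264 CPM, was highest in control 1 and siRNA 5. SRSF4 had its lowest levels where these 2 genes were high, at 183 CPM in control 1 and 204 CPM in siRNA 5, against 276 to 321 CPM in the other 4 libraries.

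PANC-1 showed another division. SRSF6 was at 352, 215 and 186 CPM in the controls and at 180.0, 381 and 181 CPM with siRNA, a CV of 37.0%. Control replicate 1 and siRNA replicate 2 stood apart from the other 4 libraries. The same pair was highest for SRSF1, at 180.2 and 205 CPM, for SRSF2, at 623 and 595 CPM, and for HNRNPH1, a G-tract binding hnRNP, at 609.6 and 624 CPM. For HNRNPH1 the other 4 libraries lay between 322 and 400.1 CPM. HNRNPAB, SYNCRIP and SRSF10 were also highest in that pair. Total counts were 23993638 in control replicate 1 and 33341322 in siRNA replicate 2, each the highest of its own PANC-1 group. Each of these libraries also had the lowest TMM normalisation factor of its group. Over 11765 genes, the deviations of these 2 libraries from their group means correlated at r = 0.69, the largest value among the PANC-1 pairs. Control 4 with siRNA 1 reached 0.55. These values describe genes, which are not independent, and deviations from a mean of 3 libraries depend on each other. In MIA PaCa-2 the same measure was 0.59 for control 2 with siRNA 5 but -0.18 for control 1 with siRNA 5. What set the PANC-1 pair apart was not tested.

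Some genes varied little. SRSF3, the smallest SR protein and an export adaptor, lay between 333 and 356 CPM in PANC-1, a CV of 2.96%, but between 229 and 370.4 CPM in MIA PaCa-2. HNRNPC had a CV of 4.59% for MIA PaCa-2 and 5.18% for PANC-1. Over the 33 of the 35 genes at 50 CPM or more the median CV was 15.8% for MIA PaCa-2 and 11.7% for PANC-1, against 15% and 15.7% among all genes at that level.

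**Figure D5:**
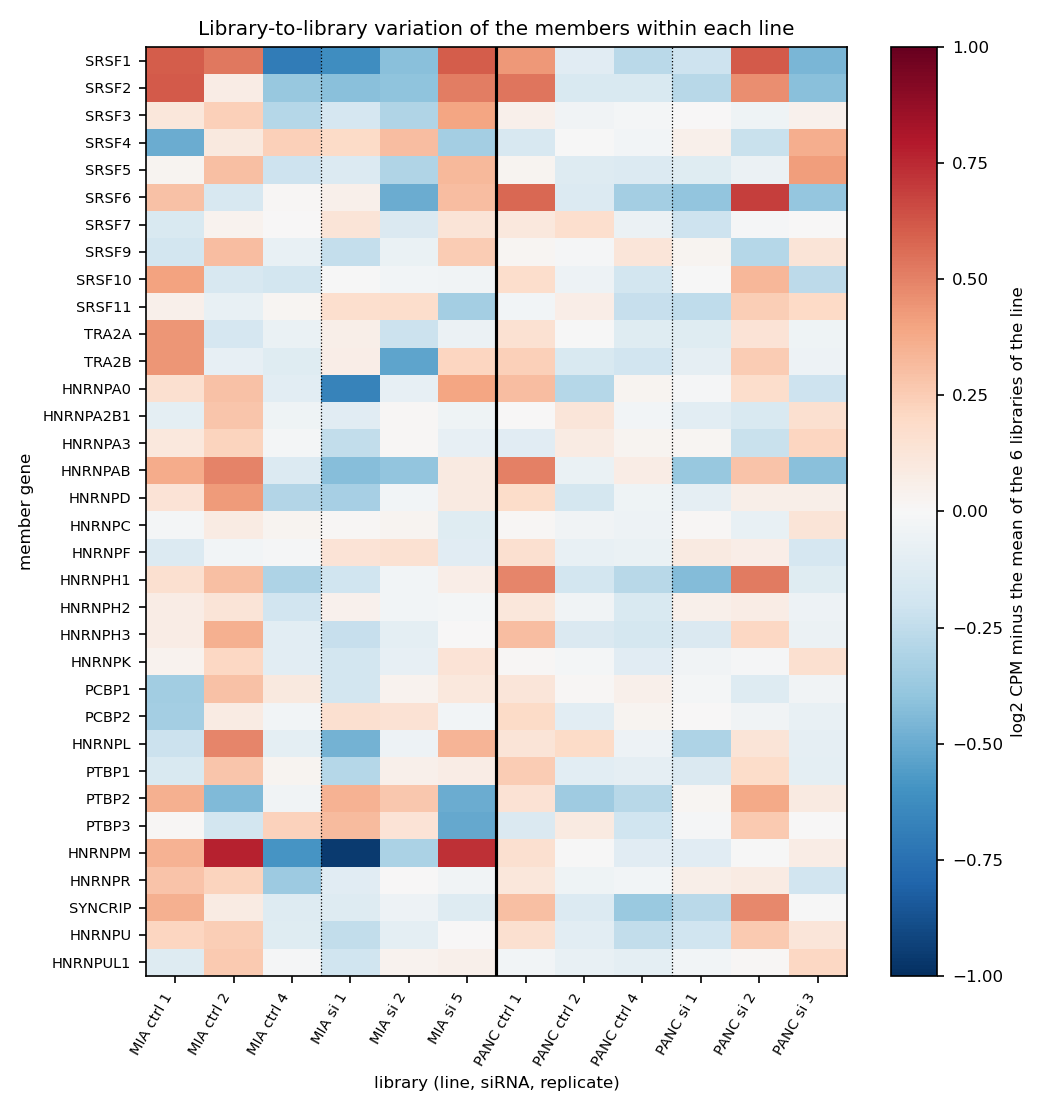
Log2 CPM of each of 34 genes (SRSF12, at low counts, left out) in each library minus the mean of the 6 libraries of its line (red above, blue below; the solid line parts the lines and the dotted lines part the treatments). HNRNPM runs from -0.96 to 0.77 in MIA PaCa-2, and control 1 and siRNA 2 of PANC-1 are high for SRSF1, SRSF2, SRSF6 and HNRNPH1.

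Promoter sequences of 3 genes, chosen after their values in MIA PaCa-2 were seen, are printed for comparison. SRSF1 and HNRNPM were high in the same libraries, and SRSF4 was lowest in control 1 and siRNA 5. SRSF4 was not among the most variable genes, with a CV of 21.5% in MIA PaCa-2 against 33.9% for SRSF2. Each line gives the 250 bases before the annotated start in RefSeq (GRCh38.p14), 5′ to 3′ on the strand of the gene. They are SRSF1 at chr17:58007247-58007496 (minus strand), HNRNPM at chr19:8444725-8444974 (plus strand) and SRSF4 at chr1:29181901-29182150 (minus strand). Capitals mark matches of the searched motifs.
SRSF1: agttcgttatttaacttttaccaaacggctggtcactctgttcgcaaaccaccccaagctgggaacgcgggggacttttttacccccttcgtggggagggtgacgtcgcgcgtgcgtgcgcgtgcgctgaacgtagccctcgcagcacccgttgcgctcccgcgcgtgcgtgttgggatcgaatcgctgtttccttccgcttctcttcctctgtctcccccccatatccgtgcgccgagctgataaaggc
HNRNPM: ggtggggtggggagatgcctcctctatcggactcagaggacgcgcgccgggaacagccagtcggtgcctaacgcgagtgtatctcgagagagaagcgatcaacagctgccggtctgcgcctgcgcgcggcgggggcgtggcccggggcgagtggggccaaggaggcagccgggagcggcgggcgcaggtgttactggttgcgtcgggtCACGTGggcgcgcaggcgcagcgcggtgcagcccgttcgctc
SRSF4: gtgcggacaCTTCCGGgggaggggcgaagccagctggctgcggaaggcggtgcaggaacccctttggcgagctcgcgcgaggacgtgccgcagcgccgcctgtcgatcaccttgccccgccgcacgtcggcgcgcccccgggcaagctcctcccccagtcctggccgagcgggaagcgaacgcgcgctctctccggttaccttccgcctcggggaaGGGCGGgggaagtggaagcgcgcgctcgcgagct

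The motifs searched on both strands were the E-box CACGTG, the ETS-type CCGGAAG, the CCAAT box CCAAT, the GC box GGGCGG and the TATA box TATAAA. Matches of different motifs may share bases. SRSF1 had none of them in this window, HNRNPM had an E-box, and SRSF4 had an ETS-type motif and a GC box. Of the 36 genes 33 matched the promoter table, with 46 windows. An E-box was in 10.9% of these windows, against 6.34% of all 35116 windows, and an ETS-type motif in 13.0% against 8.52%. For the CCAAT box the shares were 37.0% and 32.0%, for the GC box 65.2% and 42.6%, and for the TATA box 13.0% and 10.7%. The median GC content was 65.4% in the windows of these genes and 58.0% in all windows. All windows were taken whether or not their genes were expressed here. Shares among genes of like level were not computed, so these differences cannot be assigned to this gene class. A match is a run of letters and no shown binding site.

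Transcripts annotated as targets of nonsense-mediated decay (GENCODE release of the reference, matched by gene identifier) were listed for all 13 SR and TRA2 genes. Among the 22 tested hnRNP genes 12 had such a transcript, or 54.5%. For protein-coding genes at 50 CPM or more the share was 47.7%. The median number of annotated transcripts was 11 for the 35 genes and 9 for that class. Counts per gene add all these forms together. They cannot tell a shift between a coding and a degraded form from another change in level, and such shifts were not tested.

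Other splicing genes were counted in the same comparisons. With RBM3 siRNA, edgeR called 0 of the 9 SR protein kinase and import genes, 0 of 14 other SR-related and hnRNP genes, 0 of 36 core spliceosome genes, 0 of 23 other regulators and 0 of 9 nonsense-mediated decay genes. The count was 0 in each line and for the difference, and DESeq2 and limma-voom also gave 0. At an unadjusted p under 0.05 there were 2 of these genes in MIA PaCa-2, HNRNPDL and RBFOX2, beside 2.94% of all genes. In PANC-1 there was 1, SON, beside 4.12% of all genes. RBFOX2, a tissue-selective splicing regulator, had 149.9, 131 and 155 CPM in the controls of MIA PaCa-2 and 248, 208 and 182 CPM with siRNA. The groups did not overlap, as for 8.04% of all genes tested, and its log2 fold change was 0.55 (SE 0.15, edgeR adjusted p = 0.952). HNRNPDL, an hnRNP D relative, had a log2 fold change of -0.50 (SE 0.20) in MIA PaCa-2, and SON, a speckle scaffold, one of 0.58 (SE 0.22) in PANC-1, and the edgeR adjusted p was 1 for both.

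Between the lines under control siRNA the same lists gave more calls. Of the kinase and import genes 4 of 9 were lower in PANC-1 and 0 higher, beside 24.8% lower and 26% higher among all genes tested. SRPK1, which phosphorylates SR proteins in the cytoplasm, stood at 256, 229 and 218 CPM in MIA PaCa-2 and at 152, 155 and 144 CPM in PANC-1 (log2 fold change -0.64, SE 0.14, edgeR adjusted p = 0.0023). SRPK2, its paralogue, was at 154, 150.3 and 190.4 CPM against 59.1, 89.0 and 78.4 CPM (log2 fold change -1.13, SE 0.24, edgeR adjusted p = 0.00209). Neither gene overlapped between the lines.

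In the core spliceosome list 6 of 36 genes were higher and 7 lower. SF3B3, a subunit of the branch point complex, was lower (-2.04, SE 0.30, edgeR adjusted p = 0.000177), and SF3B4 of the same complex was higher (1.20, SE 0.18, edgeR adjusted p = 0.000255). Among the other regulators 5 of 23 were higher and 4 lower. ESRP2, an epithelial splicing regulator, was at 0.190 to 0.393 CPM in MIA PaCa-2 controls and at 17.8 to 36.3 CPM in PANC-1 controls, and KHDRBS3 at 1.09 to 1.57 against 32.8 to 41.2 CPM. Of the other SR-related and hnRNP genes 2 of 14 were higher, LUC7L (1.40, SE 0.30) and LUC7L3 (0.79, SE 0.24), and 1 lower. Of the nonsense-mediated decay genes 1 of 9 was higher and 3 lower, with UPF1, its central helicase, at -0.70 (SE 0.15) and SMG6, its endonuclease, at -0.66 (SE 0.20). All these shares, from 3 of 14 to 4 of 9, were below the 50.8% of all genes tested. In lists this short, 4 of 9 is near that background.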

How the data were processed

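The authors deposited raw read counts per Ensembl gene for 12 libraries. STAR 2.5.2a, featureCounts, Subread and Picard are named in the submitters' processing notes, with the build hg19 (GRCh37). Per the labels' protocols, libraries came from TruSeq kits and were read as pairs of 75 bp. The labels give both total and cytoplasmic RNA. How strand and multiply mapping reads were handled is not stated there, so overlapping genes and near-identical copies cannot be told apart.

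Counts were tested with edgeR 4.0.16 in R 4.3.3 (TMM, filterByExpr with a minimum count of 10, quasi-likelihood F-test, two-sided, group means of all 12 libraries, 8 residual degrees of freedom), with Benjamini-Hochberg adjustment over 17862 genes at 0.05. Each SE was taken as |log2 fold change| over √F. Exon lengths and transcript classes came from a GRCh38 annotation, matched by identifier, since no annotation of the files' build was used. Alternatives were DESeq2 1.42.0, limma-voom (limma 3.58.1), other scalings, filters, a replicate block and each library left out. The line comparison in siRNA libraries and the overlap without PANC-1 siRNA replicate 3 were added after the data were seen.

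The members and lists were chosen with earlier results of these data known. Named with a test were members past the threshold and the 4 with the smallest p in each comparison. From each other list the 2 genes with the smallest p were named. SRSF1, HNRNPM, PCBP1, SRSF3 and the genes described for their spread were chosen after their values were seen. Replicate pairs differed beyond sampling noise (chi-square per degree of freedom 11.0 to 181). The script was tested on simulated data. Intervals cover 95% and limits for a count of 0 rest on 3 counts.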

Additional observations from a re-analysis of the deposited data

How the results depend on the processing

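With RBM3 siRNA, 0 of the SR and hnRNP genes passed in MIA PaCa-2 or PANC-1 under each of 20 alternatives, and 0 for the difference of the responses under each of 19. With the replicate number as a block, edgeR called 0 in all 3 and 10 between the lines under control siRNA, where 48.4% of all genes passed. Whether the shared numbers pair the libraries is not known. Same-numbered deviations correlated at 0.23 and -0.15 in MIA PaCa-2 and at -0.48 and -0.46 in PANC-1. Deviations from a mean of 3 libraries depend on each other, so these values cannot decide it.

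The count of 9 genes between the lines ranged from 5 to 12 when single libraries were left out. It was 5 without MIA PaCa-2 control replicate 4 and 5 without PANC-1 control replicate 1 (2 higher and 3 lower each time), and the cause was not tested. SRSF10, HNRNPF and HNRNPUL1 passed in all 20 alternatives, SRSF4 in 19, SRSF2 and HNRNPC in 18, SRSF6 in 17, HNRNPH2 in 13 and HNRNPA3 in 12. The edgeR adjusted p of SRSF6 rose to 0.122 without PANC-1 control replicate 1. SRSF1, not called with all libraries and default settings, passed in 3, with an adjusted p between 0.014 and 0.257. HNRNPM reversed to a log2 fold change of -0.10 (edgeR adjusted p = 0.843) without MIA PaCa-2 control replicate 4, and its leave-one-out values reached 0.51. RBM3 in MIA PaCa-2 kept its direction in 20 alternatives and its call in 7. In PANC-1 it passed in 3, among them DESeq2. The other SR-related list gave 6 calls between the lines with DESeq2 and 5 with library size alone, in place of 3, and the nonsense-mediated decay list 2 in place of 4 under 6 alternatives. Depth limits SRSF12, at 143 counts in all.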
